A study of Arabidopsis thaliana with 6 samples.

Results

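PRL, AUR1 and AUR2 are genes of dividing cells in Arabidopsis thaliana, and on the ATH1 array each has a probe set of its own, annotated to no other gene. They were taken by gene name, with no measured value in the rule, but were chosen with earlier results of these data known. They make up 3 of the 13356 genes that have such a probe set here. PRL (PROLIFERA, AT4G02060) encodes MCM7, and AUR1 (AT4G32830) and AUR2 (AT2G25880) encode Aurora kinases. RNA came from unopened flower buds of dreb1a plants (line CS872453, ecotype Col-0), and every plant carried the mutation and was under drought. Water was withheld after 24 days of growth, when the main stem was about 1 cm high, and soil moisture was near 35% of capacity about 80 hours later, which is day 3. It was then held there, and buds were collected on day 3 (plant age 28 days), day 4 (29 days) and day 5 (30 days), with 2 samples and 2 arrays a day. Neither wild-type nor well-watered plants were analysed here, so each contrast compares a later with an earlier day of drought in the mutant. Age and days of drought increased together and cannot be told apart. The labels do not say whether the 2 samples of a day came from separate plants, so p-values here rest on a spread between samples that may be technical. DREB1A itself had no probe set of its own, so the genotype rests on the labels.

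MCM7 is 1 of the subunits of the ring-shaped MCM helicase, which is loaded on replication origins before S phase and unwinds DNA ahead of the polymerases. Aurora kinases act later in the cycle, on the spindle and chromosomes of mitosis. In Arabidopsis AUR1 and AUR2 are closely related, are found on spindle microtubules and the forming cell plate, and take part in orienting formative divisions, while the more distant AUR3 sits at centromeres. Flower buds hold many dividing cells, in young organs, anthers and ovules, and transcripts of replication and mitosis genes are abundant where cells cycle.

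All 3 genes stood lower on day 5 than on day 4 and lower on day 5 than on day 3, and the change from day 3 to day 4 did not pass the test for any of them. PRL fell to 53.7% of its day 3 level on day 5, AUR1 to 56.5% and AUR2 to 59.6%. For each gene both day 5 arrays lay below both day 4 arrays, which lay below both day 3 arrays, an order seen in 7.59% of all 22746 tested probe sets. The F test over the 3 days in limma called each gene (adjusted p = 0.000163 for PRL, 0.000304 for AUR1 and 0.00169 for AUR2), as it did 31.0% of tested probe sets. In whole buds, fewer dividing cells and less of these transcripts per cell cannot be told apart.

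**Figure D1:**
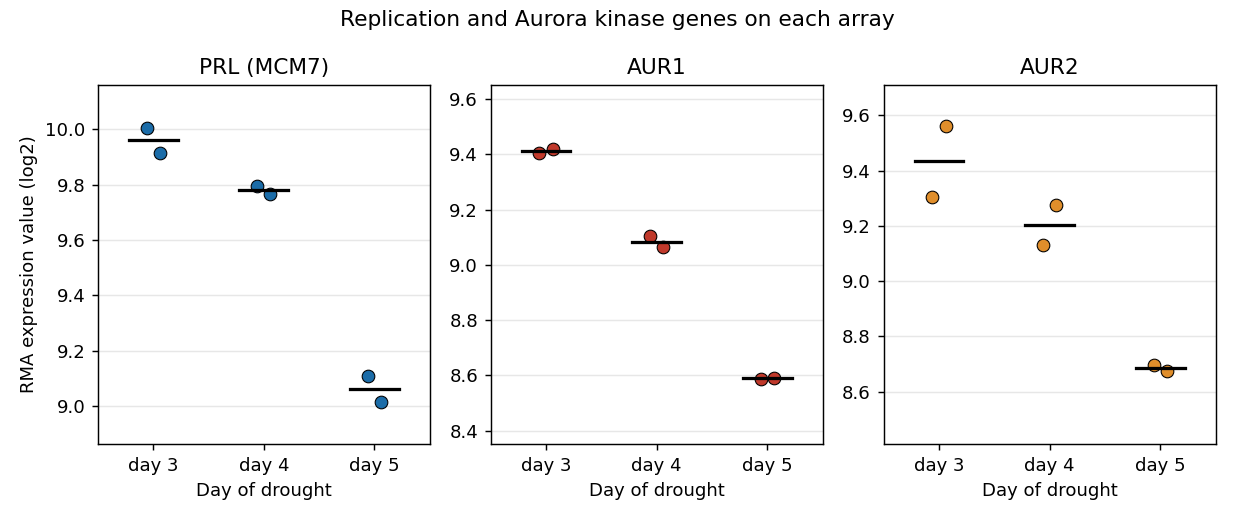
Expression of PRL (MCM7), AUR1 and AUR2 on each of the 6 arrays, by day of drought. Points are arrays, black bars are the mean of the 2 arrays of a day, and the vertical axes are RMA values on the log2 scale with the same span but different positions, since levels of different probe sets cannot be compared. The day 5 points of each gene lie below all its day 4 and day 3 points.

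PRL measured 10.00 and 9.92 on the day 3 arrays, 9.79 and 9.77 on the day 4 arrays and 9.11 and 9.02 on the day 5 arrays (RMA values, log2 scale). The narrowest gap between the arrays of days 5 and 4 was 0.66, and that between days 4 and 3 was 0.12. The mean was 9.06 ± 0.067 on day 5, against 9.78 ± 0.021 on day 4 (SD, n = 2 each). The difference of -0.72 on the log2 scale (SE 0.10, 95% interval -0.94 to -0.50) passed the test (limma adjusted p = 0.000626). Against the day 3 mean of 9.96 ± 0.063, day 5 differed by -0.90 (SE 0.10, 95% interval -1.12 to -0.68, adjusted p = 7.57e-05), a 1.86-fold lower level. Day 4 differed from day 3 by -0.18 (95% interval -0.40 to 0.040, adjusted p = 0.342).

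AUR1 had the tightest replicates of the 3 genes on days 3 and 5. It measured 9.40 and 9.42 on the day 3 arrays, 9.10 and 9.06 on the day 4 arrays and 8.59 on both day 5 arrays. The groups of the 3 days did not overlap. Its mean on day 5 was 0.49 below that of day 4 on the log2 scale (log2 change -0.49, SE 0.10, adjusted p = 0.00418) and 0.82 below that of day 3 (log2 change -0.82, SE 0.10, adjusted p = 0.000103, 1.77-fold lower). Day 4 differed from day 3 by -0.33 (95% interval -0.54 to -0.12, unadjusted p = 0.00573), which missed the threshold after adjustment over all probe sets (adjusted p = 0.0817) and passed it where the prior variance was allowed to vary with signal level (adjusted p = 0.0318).

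AUR2, the close relative of AUR1, varied most of the 3 genes between replicates on days 3 and 4. It measured 9.30 and 9.56 on the day 3 arrays, 9.13 and 9.28 on the day 4 arrays and 8.70 and 8.68 on the day 5 arrays. Only 0.027 separated the highest day 4 array from the lowest day 3 array, against 0.43 between the highest day 5 array and the lowest day 4 array. The day 5 mean of 8.69 ± 0.016 differed by -0.52 from the day 4 mean of 9.20 ± 0.10 (SE 0.11, adjusted p = 0.00844) and by -0.75 from the day 3 mean of 9.43 ± 0.18 (SE 0.11, adjusted p = 0.000669, 1.68-fold lower). Without day 5 replicate 2 the change between days 4 and 5 was -0.51 and missed the threshold (adjusted p = 0.0563). The change of -0.23 between days 3 and 4 (95% interval -0.48 to 0.024, adjusted p = 0.292) depended on the day 3 arrays, at -0.10 when replicate 2 was left out and -0.36 when replicate 1 was.

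**Figure D2:**
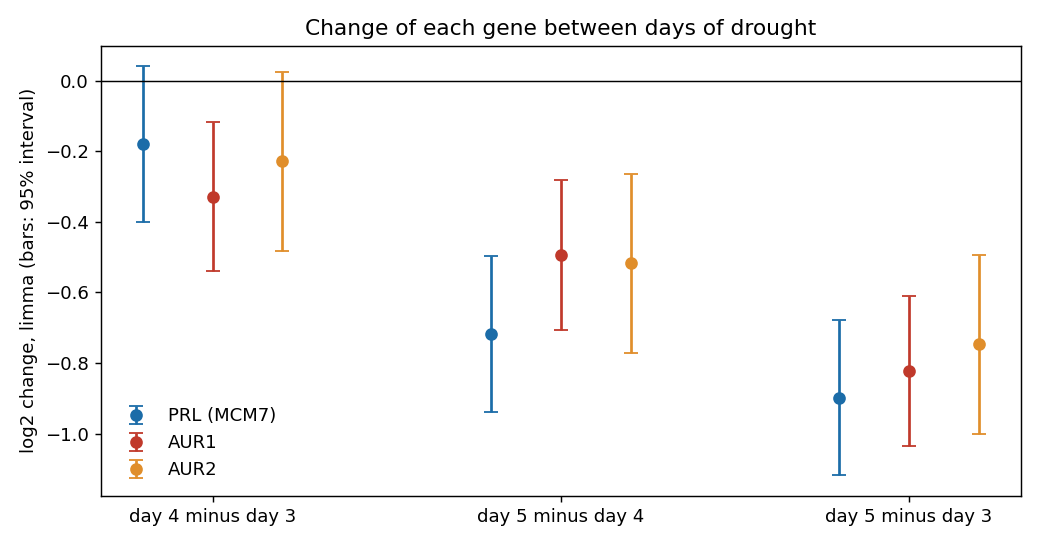
Log2 changes of PRL, AUR1 and AUR2 between days of drought, with 95% intervals from limma on all 6 arrays (n = 2 a day). The intervals for day 5 minus day 4 and day 5 minus day 3 lie wholly below 0 for all 3 genes, and those of PRL and AUR2 for day 4 minus day 3 include 0.

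Set against all probe sets, falls of this kind were common on day 5 and rare on day 4. Of the 3 genes 3 fell between days 4 and 5, as did 13.4% of tested probe sets, and 3 fell between days 3 and 5, as did 15.7%. From day 3 to day 4 none of the 3 passed after adjustment (AUR1 alone had an unadjusted p under 0.05), where 2.47% of probe sets fell. By size the genes stood further out: 1.95% of probe sets had a larger fall than PRL between days 3 and 5, 2.55% a larger one than AUR1 and 3.22% a larger one than AUR2. For day 5 against day 4 these shares were 1.63% for PRL, 5.83% for AUR1 and 5.14% for AUR2. The median change of all probe sets was -0.050 in the step to day 5 and -0.014 over both steps.

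**Figure D3:**
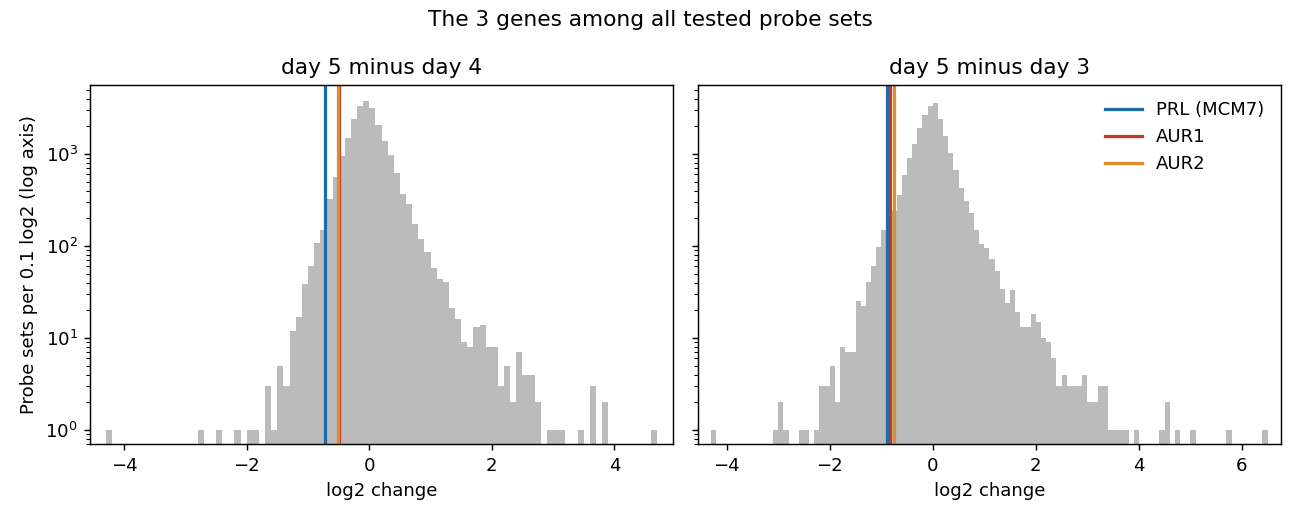
Log2 changes of all 22746 tested probe sets (grey bars, number per 0.1 log2 on a log axis) for day 5 minus day 4 and day 5 minus day 3, with PRL, AUR1 and AUR2 as coloured lines. The 3 lines lie in the left flank, at -0.72, -0.49 and -0.52 in the left panel and -0.90, -0.82 and -0.75 in the right panel.

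The step to day 5 made up 80.0% of the whole fall of PRL, 60.1% of that of AUR1 and 69.3% of that of AUR2. Whether the later fall exceeded the earlier one was tested as the difference of both steps (later minus earlier). Of all probe sets, 3.39% passed with a negative difference. That sign also covers probe sets that rose in the earlier step and then rose less or fell, so the share is not one of falls alone. None of the 3 genes passed, with differences of -0.54 for PRL (SE 0.17, unadjusted p = 0.00989, adjusted p = 0.0859), -0.17 for AUR1 (adjusted p = 0.575) and -0.29 for AUR2 (adjusted p = 0.399). With a prior that varied with signal level, PRL passed (adjusted p = 0.0273), and with the poly-A scaling given further on all 3 genes passed (adjusted p = 0.00104 for PRL, 0.00703 for AUR1 and 0.00403 for AUR2). That scaling lowers the later step of every probe set, and with it 84.3% of all probe sets fell between days 4 and 5. The share of all probe sets that passed the difference of both steps under these 2 alternatives is not given here, and the 3.39% does not apply to them.

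Differences between the genes within an array show whether they moved together, though not their relative levels. The log2 value of PRL minus that of AUR1 was 0.52 and 0.43 on day 5, 0.69 and 0.70 on day 4 and 0.60 and 0.50 on day 3, so day 5 overlapped with day 3 and lay below day 4. That of AUR1 minus AUR2 was -0.11 and -0.086 on day 5, -0.028 and -0.21 on day 4 and 0.10 and -0.14 on day 3, with overlap throughout. PRL minus AUR2 was 0.41 and 0.34 on day 5. It was 0.66 and 0.49 on day 4 and 0.70 and 0.35 on day 3. Day 5 thus overlapped with day 3 and lay below day 4. With 2 arrays a day an exact two-sided permutation test of such a difference cannot go below p = 0.333. No other test of unequal change among the 3 genes was run.

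Signals of the poly-A control RNA and of 25S ribosomal RNA were also different on day 5. The mean of 24 probe sets for poly-A control RNA was 7.63 and 7.53 on the day 5 arrays, against 6.98 to 7.08 on day 4 and 7.02 to 7.16 on day 3, and the signal of 25S ribosomal RNA on day 5 exceeded that of day 4 by 0.93. Scaled to the poly-A controls, the changes between days 4 and 5 were larger, at -1.27 for PRL, -1.04 for AUR1 and -1.07 for AUR2, where the median of all probe sets was -0.60. Between days 3 and 5 they were -1.39 for PRL, -1.31 for AUR1 and -1.23 for AUR2, with a median of -0.50. With this scaling 3.93% of the calls between days 3 and 5 were rises, against 45.6% as deposited, and 1.97% between days 4 and 5, against 44.0%. Relative to the median of all probe sets, PRL stood at -0.88, AUR1 at -0.81 and AUR2 at -0.73 for day 5 against day 3 with either scaling. These values cannot differ between the scalings, since scaling to the poly-A controls shifts all probe sets of an array by the same amount. Equal addition of control RNA to the samples is not stated in the labels, and the part of RNA input in these results was not tested.

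**Figure D4:**
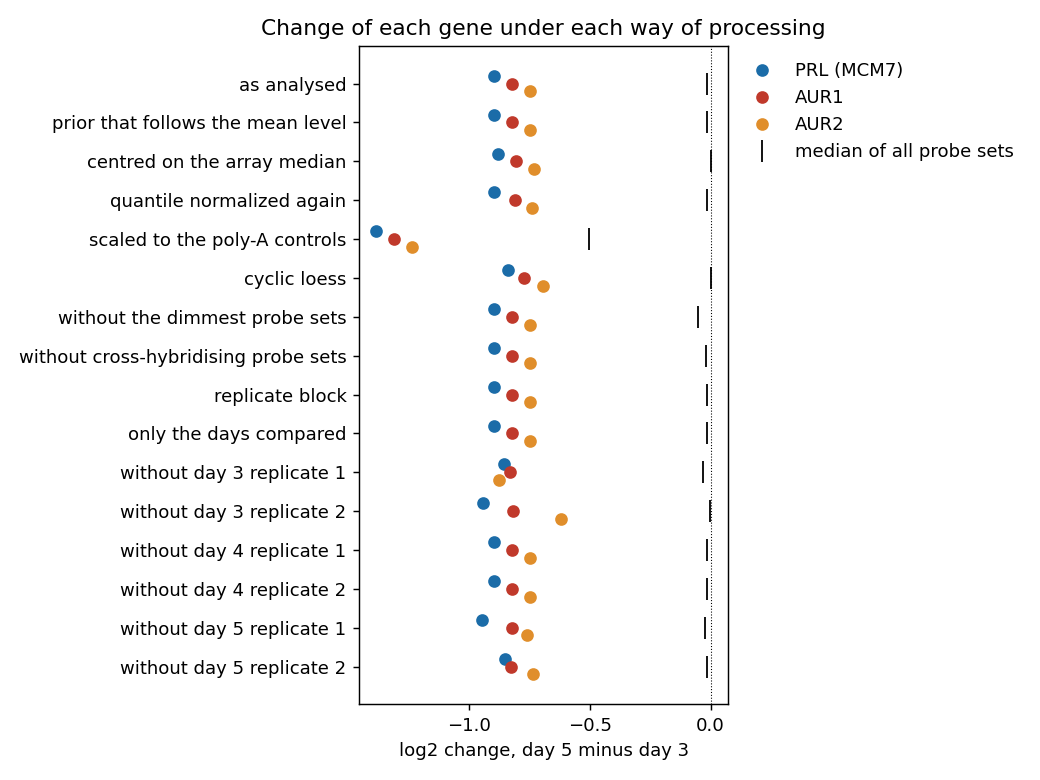
Log2 change from day 3 to day 5 of PRL, AUR1 and AUR2 (points) under each way of processing, with the median change of all probe sets (black ticks). All points lie left of their tick, and scaling to the poly-A controls, by its arithmetic, moves genes and median by the same amount.

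Other genes of the cell cycle were taken from lists of 48 replication and 49 mitosis genes. Of these, 6 and 12 had a probe set of their own, the 3 genes included. The lists, too, were chosen with earlier results of these data known. Of the other 15, 10 fell and none rose between days 3 and 5, with a median change of -0.69. Between days 4 and 5, 9 fell and none rose (median -0.50). Between days 3 and 4, 2 fell and none rose (median -0.19). Of all probe sets 15.7% fell and 13.2% rose between days 3 and 5. These shares were 13.4% and 10.5% between days 4 and 5, and 2.47% and 2.48% between days 3 and 4. With poly-A scaling all 15 fell between days 3 and 5, as did 76.8% of all probe sets.

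Besides PRL, 3 of the 5 other replication genes fell from day 3 to day 5. POLA3 (AT5G41880), a subunit of the polymerase alpha and primase complex that starts new strands, measured 8.05 and 7.95 on the day 5 arrays, against 9.09 and 9.10 on the day 3 arrays, a change of -1.09 (SE 0.11, adjusted p = 3.74e-05). ICU2 (AT5G67100), the catalytic subunit of polymerase alpha, changed by -0.89 (SE 0.12, adjusted p = 0.000304). AT1G07270, CDC6B in the replication list and given by locus alone in the annotation, changed by -0.84 (SE 0.12, adjusted p = 0.000521). The GINS subunit gene PSF2, whose protein travels with the MCM helicase, stood at -0.30 (adjusted p = 0.0729, 0.0497 without the dimmest probe sets and 0.0372 without the first day 5 array), and AT5G26680 at -0.12 (adjusted p = 0.447). With poly-A scaling both passed, at -0.78 (adjusted p = 6.96e-05) and -0.61 (adjusted p = 0.000843). Between days 4 and 5, ICU2 changed by -0.54 and POLA3 by -0.53 with all arrays. Without day 5 replicate 2 these changes were -0.50 and -0.48, and both missed the threshold. ICU2 also missed it without day 4 replicate 1 (change -0.41). Over all probe sets, too, fewer passed when either of these arrays was left out.

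Among the mitosis genes, 7 of the 10 besides AUR1 and AUR2 fell from day 3 to day 5. HTR12, the histone H3 variant of centromeres (CENH3), measured 6.88 and 6.97 on the day 5 arrays, against 8.11 and 8.17 on the day 3 arrays, a change of -1.21 (SE 0.11, adjusted p = 2.45e-05). BUBR1, of the spindle checkpoint, measured 6.24 and 6.20 on day 5, against 7.20 and 7.35 on day 3 (change -1.05, SE 0.10, adjusted p = 3.65e-05), and its change between days 4 and 5 was -0.96 with -0.10 between days 3 and 4. For HTR12 and BUBR1 the arrays of day 5 did not overlap with those of day 3. The share of all probe sets with such a separation is not given here. WYR (AT5G55820), a relative of the animal Aurora partner INCENP, fell by 0.69 on the log2 scale (SE 0.10, adjusted p = 0.000385). FU (AT1G50240), a kinase needed for cell plate growth in Arabidopsis, fell by 0.90 (SE 0.13, adjusted p = 0.000548) on the brighter of its 2 probe sets, while the dim one had means of 4.39 on day 5 and 4.44 on day 3. AT2G28620 fell by 0.96 and 3xHMG-box1, whose protein binds mitotic chromosomes, fell by 0.69. TSO1, a regulator of division in flowers, fell by 0.34 (adjusted p = 0.0366), but this call was lost when any of the 4 arrays of days 3 and 5 was left out, with adjusted p between 0.114 and 0.155. Cyclic loess gave 0.0600 as its adjusted p.

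AUR3 (AT2G45490) measured 7.27 and 7.57 on the day 5 arrays, against 7.64 and 7.79 on the day 3 arrays, a change of -0.29 (SE 0.12, 95% interval -0.57 to -0.020), which did not pass on the deposited scale (adjusted p = 0.103) and did with poly-A scaling (-0.78, adjusted p = 0.000212). The interval of AUR1 for the same days ran from -1.04 to -0.61. That of AUR2 ran from -0.9998 to -0.4938 and overlapped with that of AUR3, while that of AUR1 did not. The log2 value of AUR1 minus that of AUR3 was 1.32 and 1.02 on day 5, against 1.76 and 1.63 on day 3, without overlap, and that of AUR2 minus AUR3 averaged 1.27 on day 5, against 1.72 on day 3. The difference between the Aurora genes was not tested, and 2 arrays a day allow no exact two-sided permutation p below 0.333. ATSMC2, a condensin subunit gene, stood at -0.32 (adjusted p = 0.106) and at -0.81 with poly-A scaling (adjusted p = 0.000354). KEU, which acts in vesicle fusion at the cell plate, stood at 0.12 (adjusted p = 0.409) and at -0.36 with poly-A scaling (adjusted p = 0.0210).

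**Figure D5:**
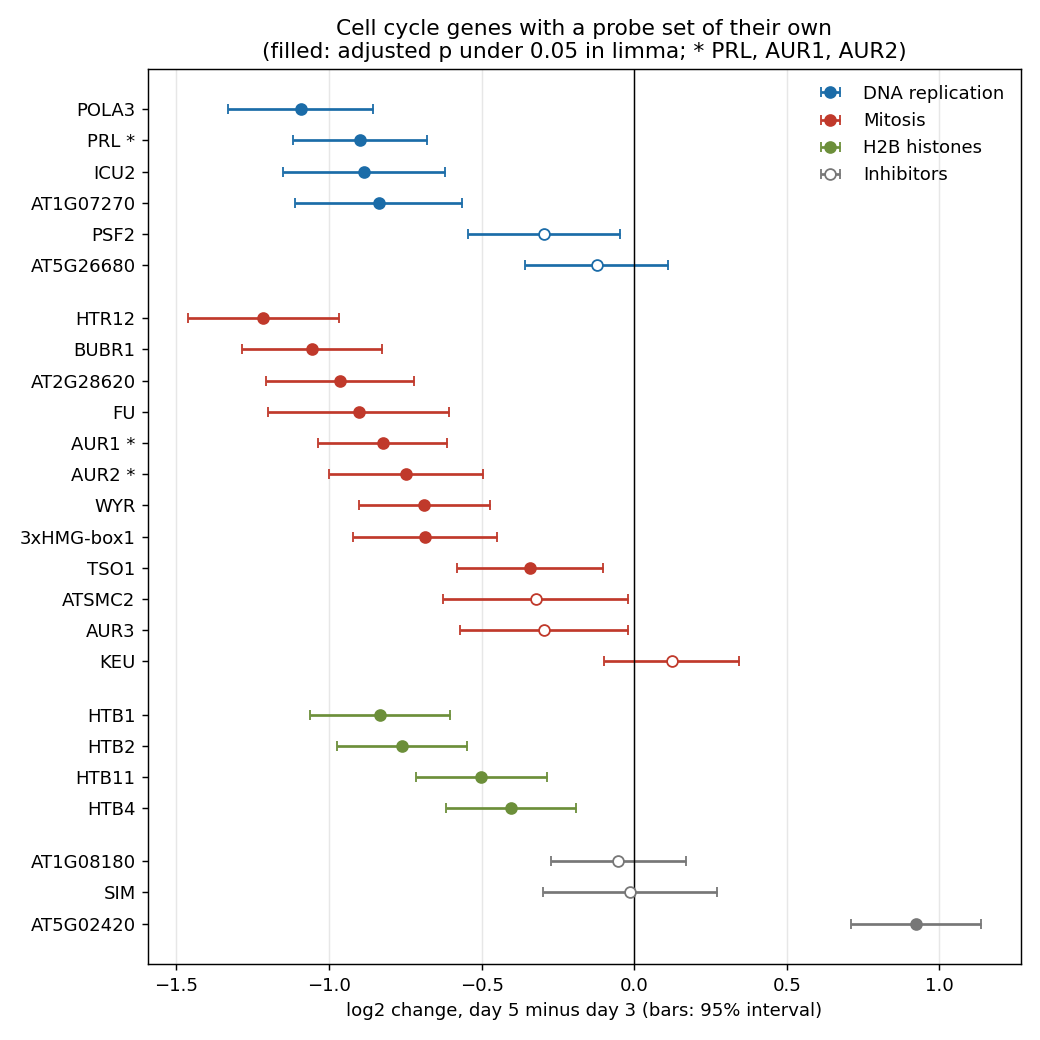
Log2 change from day 3 to day 5 of the cell cycle genes with a probe set of their own, with 95% intervals from limma on 6 arrays (n = 2 a day). Filled points passed an adjusted p of 0.05, and stars mark PRL, AUR1 and AUR2. Points of the replication, mitosis and H2B groups lie left of 0 except KEU, and AT5G02420 alone lies wholly to the right.

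Among the replication and mitosis genes, those that passed from day 3 to day 4 were POLA3 (change -0.56, adjusted p = 0.0150) and HTR12 (change -0.47, adjusted p = 0.0372). Neither call held when replicate 1 of day 3, replicate 2 of day 3 or replicate 2 of day 4 was left out. POLA3 then had adjusted p-values of 0.111, 0.0928 and 0.0922, and HTR12 had 0.164, 0.177 and 0.181. HTR12 also missed the threshold with only the arrays of days 3 and 4 (adjusted p = 0.0532), and with poly-A scaling it had an adjusted p of 0.0912.

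All 4 measured histone H2B genes of the list of replication-dependent histones fell between days 3 and 5, with a median of -0.63, where 15.7% of all probe sets fell. H2B is a core histone made in bulk when DNA is copied. HTB1 measured 10.15 and 10.07 on day 5, against 10.86 and 11.02 on day 3, and fell by 0.83 (SE 0.10, adjusted p = 0.000164). HTB2 fell by 0.76, HTB11 fell by 0.50 and HTB4 fell by 0.40. The call for HTB4 was lost without the first day 3 array (adjusted p = 0.0604) or the first day 5 array (adjusted p = 0.0625). Members of this family are alike in sequence, so their probe sets may share signal. HTB1 changed by -0.87 between days 4 and 5 (adjusted p = 0.000273) and stood at 0.038 between days 3 and 4 (adjusted p = 0.881).

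Of 3 measured genes of the list of cell cycle inhibitors and endoreduplication, AT5G02420 rose between days 3 and 5, where 13.2% of all probe sets rose. It measured 9.01 and 9.06 on day 5, against 8.11 on both day 3 arrays, a change of 0.92 (SE 0.10, adjusted p = 5.17e-05), of which 0.64 lay between days 3 and 4 (adjusted p = 0.00441, and 0.0533 without day 3 replicate 1). SIM, an inhibitor of cyclin-dependent kinases that promotes endoreduplication in Arabidopsis, stood at -0.013 (adjusted p = 0.959), and AT1G08180 at -0.051 (adjusted p = 0.760). Of 15 organ growth genes 2 were measured, and neither passed for day 5 against day 3. JAG, which sustains division in growing petals, stood at -0.14, and CLV3, a signal of stem cells, at 0.23 (-0.26 with poly-A scaling). CLV3 measured 4.04 and 4.15 on day 5, against 3.83 and 3.91 on day 3. These values lay near the 3.59 to 3.74 of the trp controls, for which no RNA is expected. JAG passed from day 3 to day 4 (change -0.45, adjusted p = 0.0361), but not with only the arrays of those days (adjusted p = 0.0535). Nor did it pass when any 1 of the 6 arrays was left out. None of the 20 listed genes of the G1 to S transition had a probe set of its own.

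Markers of cell types that a bud can hold were measured on the same arrays, and their counts stand beside the 15.7% of all probe sets that fell and the 13.2% that rose between days 3 and 5. Of 6 meiocyte markers 1 fell between days 3 and 5, ATMND1 by 0.45 on the log2 scale (adjusted p = 0.00616, and 0.0508 without day 5 replicate 2), and the mean log2 value of the list was 4.91 and 4.93 on day 5, against 5.15 and 5.18 on day 3. SDS, a meiotic cyclin gene, was at 4.04 on both day 5 arrays and at 4.29 and 4.35 on day 3, near the 3.59 to 3.74 of the trp controls, for which no RNA is expected. Of 3 tapetum markers 2 fell, EMS1 by 0.49 and AMS by 0.54, and the mean of that list was 9.59 and 9.88 on day 5, against 10.11 on both day 3 arrays. For AMS the call was lost without either day 3 array (adjusted p = 0.0553 and 0.102) and without the first day 5 array (0.147). With poly-A scaling all 6 meiocyte and all 3 tapetum markers fell, as did 76.8% of all probe sets.

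Of 6 pollen markers 3 rose, with list means of 6.92 and 6.87 on day 5, against 6.63 and 6.69 on day 3. The count was 0 without the first day 5 array and 1 without the first day 3 array. With poly-A scaling 3 of the 6 fell and none rose, where 76.8% of all probe sets fell. Of 4 floral organ markers 1 rose (none with poly-A scaling, where 2 fell), and the list averaged 7.31 and 7.33 on day 5, against 7.18 and 7.03 on day 3. Of 5 green tissue markers 2 fell, with means of 12.17 and 12.19 on day 5, against 12.31 and 12.30 on day 3, and with poly-A scaling all 5 fell. The count on the deposited scale was 1 when any of the 4 arrays of days 3 and 5 was left out. The mean of each of the 5 lists lay above the trp controls on every array. Besides SDS, the meiocyte markers ATSPO11-1, SPO11-2 and RCK were also dim, with means of 4.69, 4.49 and 4.38 on day 5. The part of a shift in cell types in the falls of PRL, AUR1 and AUR2 was not tested.

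Each of the 3 genes was compared with all other probe sets named with 1 gene alone, 13510 in number, by the root mean square difference of log2 values over the 6 arrays after each profile had been centred on its mean. AT4G14330 was nearest to PRL (0.038), followed by AT2G47010, AT3G10310, AT1G48610 and AT4G37110. It measured 6.53 and 6.49 on day 5, 7.26 and 7.17 on day 4 and 7.52 and 7.35 on day 3. AT3G07580 was nearest to AUR1 (0.034), followed by TRM24, AT5G09240, AT1G66620 and AT3G56810. AT5G26670 was nearest to AUR2 (0.043), followed by AT3G10880, AT5G40030, AT5G06590 and AT1G58170. The differences among the 3 genes were 0.102 for PRL and AUR1, 0.143 for PRL and AUR2 and 0.0982 for AUR1 and AUR2. They exceed those of the nearest profiles, which were picked as the smallest among the 13510. There were 84 probe sets nearer to PRL than AUR1 was, 286 nearer to PRL than AUR2 was and 105 nearer to AUR1 than AUR2 was.

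In the RefSeq annotation TAIR10.1, PRL and AUR1 lie on chromosome 4 and AUR2 on chromosome 2, and each overlaps 1 neighbouring protein-coding gene. PRL overlaps STP7, AUR1 overlaps PFK6 and AUR2 overlaps AT2G25890. Only AT2G25890 had a probe set of its own among these, and it moved the other way to AUR2. It measured 9.07 and 9.18 on the day 5 arrays, against 8.24 and 8.38 on the day 3 arrays, a rise of 0.81 (SE 0.11, adjusted p = 0.000349), and of 0.33 with poly-A scaling (adjusted p = 0.0295). Whether its probes or those of AUR2 lie in the shared stretch was not tested. AT2G25870, next to AUR2 without overlap, stood at -0.14 (adjusted p = 0.360).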

How the data were processed

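Total RNA from unopened buds was biotin-labelled and hybridised to ATH1 arrays, 1 per sample. The authors deposited log2 values made with RMA in affy, per the submitters' processing notes. The sources used here give no versions and do not say which arrays were normalized together. RMA's quantile normalization hides a change shared by most transcripts, and the number of arrays limits precision. Of 22810 probe sets, 64 controls were left out and 22746 tested. 13513 were named with 1 gene, 503 with several and 8730 not named here, through the platform annotation and RefSeq TAIR10.1 (13436 matched).

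All 6 arrays entered 1 limma 3.58.1 model (R 4.3.3, lmFit and eBayes, day as the only term, 3 residual and 8.01 prior degrees of freedom). P-values are two-sided, with Benjamini-Hochberg adjustment over the whole array and a threshold of 0.05. The model was tested on simulated data. A planned search of promoter motifs was not run here.

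Members, lists (239 genes, 51 measured, brightest probe set per gene) and tests were chosen with earlier results of these data known. By rule, the text names the 3 members, replication and mitosis genes that passed in any comparison, up to 3 genes of each other cell cycle list by smallest p for day 5 against day 3, and 5 nearest profiles a member. PSF2, AT5G26680, AUR3, ATSMC2, KEU, HTB4, the markers and neighbouring genes were named after their values were seen. Alternatives were the prior, 4 other scalings, 2 filters, a replicate block, only the days compared and leaving out each array.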

Additional observations from a re-analysis of the deposited data

How the results depend on the processing

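Between days 4 and 5 and between days 3 and 5, PRL, AUR1 and AUR2 kept their direction and side of the threshold under all 15 alternatives, except AUR2 between days 4 and 5 without day 5 replicate 2. The 15 are not all distinct, since leaving out an array of the day not compared gave the same result as using only the days compared. Leaving out 1 array at a time gave -0.77 to -0.67 for PRL, -0.51 to -0.48 for AUR1 and -0.59 to -0.44 for AUR2 (day 5 minus day 4). AUR1 from day 3 to day 4 passed with a prior that varied with signal level (-0.33), as did the difference of the steps of PRL (-0.54). Scaled to the poly-A controls that difference passed for PRL (-1.15), AUR1 (-0.78) and AUR2 (-0.90), since this scaling lowers the later step of every probe set.

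Over all probe sets, calls between days 3 and 4 numbered 1125, against 227 to 404 when either day 3 array or the second day 4 array was left out. Between days 4 and 5 there were 5443, against 3398 without the first day 5 array, 2506 without the second and 19570 with poly-A scaling. Between days 3 and 5 there were 6566, against 4362 and 4097 without the first and the second day 3 array, 3844 without the second day 5 array and 18174 with poly-A scaling. Rises made up 55.2% of calls between days 4 and 5 after cyclic loess, against 44.0%, and 68.0% between days 3 and 4 with poly-A scaling, against 50.1%.

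List calls depended more on single arrays. The replication list had 0 to 1 calls from day 3 to day 4 and 2 to 4 from day 4 to day 5 when an array was left out, and the mitosis list 0 to 1 from day 3 to day 4. The mitosis list had 2 calls from day 3 to day 4 with the other prior and 0 scaled to the poly-A controls or with only the days compared. Scaled to the poly-A controls, signs turned from day 4 to day 5 for PSF2 (-0.52), KEU (-0.52), SIM (-0.29), AT1G08180 (-0.51), AT5G02420 (-0.27), JAG (-0.24) and AT2G25890 (-0.10), from day 3 to day 5 for KEU (-0.36) and CLV3 (-0.26), and from day 3 to day 4 for EMS1 (0.022). SIM turned from day 3 to day 5 when centred on the median (0.0047) and after cyclic loess (0.043). Leaving out 1 array at a time turned signs from day 3 to day 4 for AUR3 (-0.15 to 0.021), ATSMC2 (-0.084 to 0.25), FU (-0.35 to 0.041), HTB1 (-0.038 to 0.11), AMS (-0.24 to 0.020) and EMS1 (-0.14 to 0.054). It did so from day 4 to day 5 for PSF2 (-0.11 to 0.17), KEU (-0.0095 to 0.075), AT1G08180 (-0.037 to 0.11) and CLV3 (-0.23 to 0.053), and from day 3 to day 5 for SIM (-0.13 to 0.11) and AT1G08180 (-0.12 to 0.022). The cause was not tested.

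Whether replicate numbers pair samples across days is not stated in the labels. Deviations of same-numbered arrays correlated at 0.058 (days 3 and 4), -0.0022 (days 3 and 5) and 0.098 (days 4 and 5), which cannot decide it. With the replicate number as a block, 6718 probe sets passed between days 3 and 5, against 6566 without it, and the changes of PRL (-0.90), AUR1 (-0.82) and AUR2 (-0.75) passed as before.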
